A study of Mus musculus with 4 samples.

Results

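The 10 genes described here encode the NF-kB transcription factor subunits (Rela, Relb, Rel, Nfkb1 and Nfkb2) and the IkB proteins that bind them (Nfkbia, Nfkbib, Nfkbie, Nfkbiz and Bcl3). They were chosen by name, as the rows of the deposited expression table whose symbol is one of these, and each symbol was found on 1 row, giving 10 of 50600 genes. RNA was sequenced from Py8119 cells, an established line from a mammary tumour of the mouse strain C57BL/6, called mesenchymal-like in the labels and grown in serum-containing medium without any treatment. A control population, whose libraries are titled hygro, was compared with a population overexpressing Mtss1, with 2 libraries each (control 1 and 2, overexpression 1 and 2). The vector and promoter that drive Mtss1, and whether either population is a single clone, are not given in the labels. Because the labels do not describe the replicates of a group as separate cultures, p-values here weigh a difference against the spread of these libraries alone, and that spread may be technical. The series title places the experiment in work on how Mtss1 acts on the ubiquitination and turnover of p65, the protein that Rela encodes. All values below measure RNA and none measures protein.

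NF-kB proteins work as pairs drawn from the Rel family. RelA (p65), RelB and c-Rel carry a transactivation domain, whereas Nfkb1 and Nfkb2 encode long precursors, p105 and p100, that are processed to the DNA-binding partners p50 and p52. In resting cells the classical inhibitors IkBalpha, IkBbeta and IkBepsilon (Nfkbia, Nfkbib and Nfkbie) mask the pairs in the cytoplasm until the IKK kinases mark them for ubiquitination and destruction. IkBzeta (Nfkbiz) and Bcl-3 are nuclear relatives that bind p50 or p52 pairs and can act as coactivators. In the mammary gland the pathway is known from duct and alveolus development and from inflammatory signalling in tumours.

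The values are CPM (read counts scaled to a common library total), and the steps between values gave back totals of 15594209 to 22081639 reads per library. Mtss1 was at 54.5 CPM in control 1, 50.5 in control 2, 118 in overexpression 1 and 119 in overexpression 2, so the libraries match their labels. Most defining markers of other cell types were close to 0, but the luminal keratin genes Krt8 and Krt18 were not. Of 7 luminal markers Krt8, Krt18, Gata3 and Esr1 passed the filter (1 rose, 2 fell). Mean CPM in control and with overexpression was 585 and 367 for Krt8 and 286 and 234 for Krt18. It was 34.1 and 65.1 for Gata3 and 28.4 and 27.2 for Esr1. None of 5 basal and none of 4 endothelial markers passed the filter. Epcam, Krt19 and Krt5 were listed at 0 in the 4 libraries, as were 5 of 10 immune markers, and the summed CPM of the immune list was 6.52 to 9.13, nearly all of it from Cd14. Of 3 adipocyte markers Fabp4 rose from 36.8 to 83.2 CPM on average while Adipoq was listed at 0 and Plin1 stayed at or under 0.05 CPM. Of the 7 mesenchymal markers, all of which passed the filter, 2 rose and 4 fell. The part of these markers in the changes below was not tested, and in such bulk RNA fewer cells of a type and less RNA per cell cannot be told apart.

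The NF-kB genes that changed split evenly between the directions, and no change was large. With Mtss1 overexpression Nfkbia, Rel and Relb rose, Nfkbiz, Nfkbib and Nfkb1 fell, and Rela, Nfkb2, Nfkbie and Bcl3 did not pass the test. Changes are given as log2 fold changes on the log2(CPM + 1) scale, tested with limma across all genes that reached 1 CPM in at least 2 libraries, at a Benjamini-Hochberg adjusted p under 0.05. All 10 genes passed that filter. The 6 calls among the 10 genes (3 higher, 3 lower) stand beside a background of 66.1% of the 12510 tested genes called in either direction, 31.9% higher and 34.2% lower, so the share called in these families is near that of the whole table. The largest change of the 10, that of Nfkbiz, was 0.33 in size, and 43.8% of all tested genes changed by more. The median log2 fold change was -0.05 over the 10 genes and -0.01 over all tested genes, and the median size of the change was 0.20 against 0.28. At an adjusted p under 0.01, 5 of the 10 genes were called (all but Rel of the 6), beside 56.3% of all tested genes. No member reached a 2-fold change, which 8.27% of the tested genes did. For 9 of the 10 genes, Nfkbie being the exception, the values of the groups did not overlap. Over all tested genes the groups did not overlap for 81.6%. Both counts are of the deposited CPM, whose library sums were higher in the controls, and were not repeated under another scaling.

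**Figure D1:**
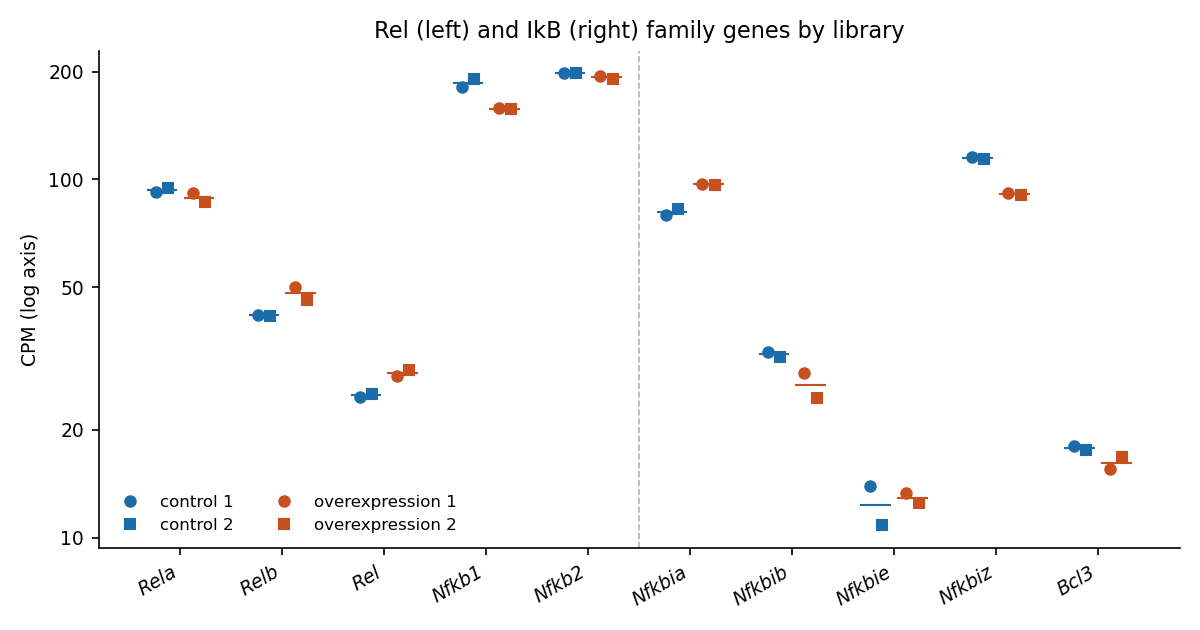
CPM on a log axis for the 5 Rel family genes (left of the dashed line) and the 5 IkB family genes (right), with blue symbols for control, orange symbols for overexpression (circles for library 1, squares for library 2) and short lines for group means. The orange symbols of Nfkbia, Relb and Rel lie above the blue ones, those of Nfkbiz, Nfkb1 and Nfkbib below them, and those of Nfkbie lie between the 2 control values.

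**Figure D2:**
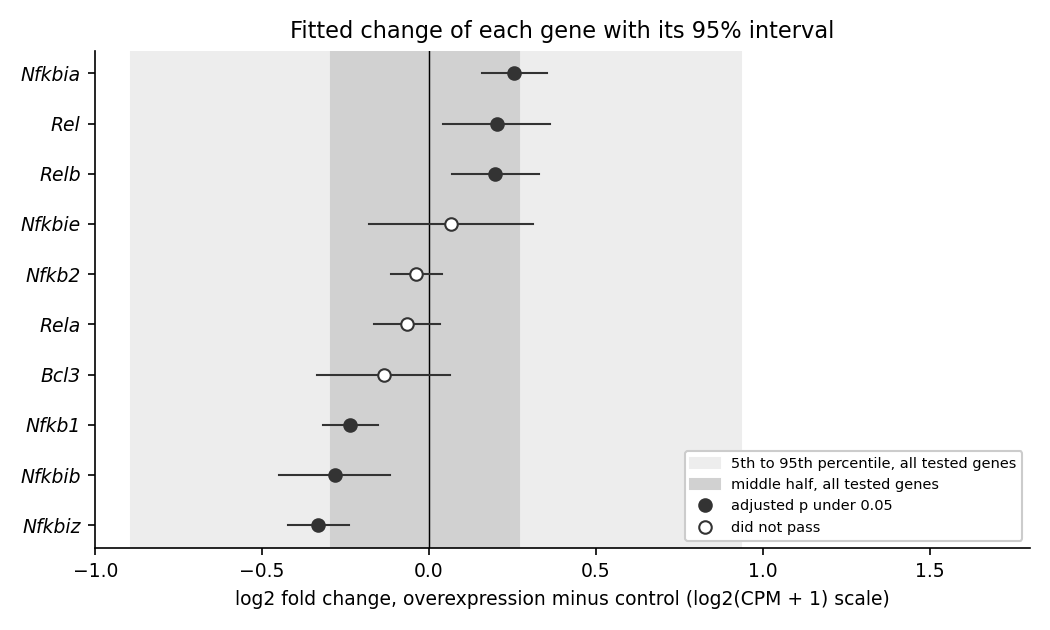
Fitted log2 fold change (overexpression minus control) of each gene with its 95% interval, filled where the adjusted p was under 0.05. The dark band spans the quartiles of all 12510 tested genes (-0.29 to 0.27) and the light band their 5th to 95th percentile (-0.89 to 0.93); 9 of the 10 points lie inside the dark band and Nfkbiz lies outside it.

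Several of these genes are known targets of NF-kB itself, so the DNA just before their start sites is shown for the members with a match to the kB consensus. The consensus is the 10-base NF-kB element known as the kB motif (GGG, a purine, any 2 bases, 2 pyrimidines, then CC), searched on both strands in the 250 bases before each RefSeq start site (GRCm38.p6), with overlapping matches counted. Windows were found for 7 of the 10 genes: Rela, Rel, Nfkb2, Nfkbia, Nfkbib, Nfkbie and Bcl3. A match was found for 4 of these 7 (Rel, Nfkb2, Nfkbia and Nfkbie), while 8.23% of all 27025 genes with a window and 10.5% of the 9137 tested genes with one hold a match. Counted by window, the share was 7.25% of 32851. Capitals mark the matching bases, which may lie on either strand.
Rel promoter, chr11:23770970-23771219, minus strand: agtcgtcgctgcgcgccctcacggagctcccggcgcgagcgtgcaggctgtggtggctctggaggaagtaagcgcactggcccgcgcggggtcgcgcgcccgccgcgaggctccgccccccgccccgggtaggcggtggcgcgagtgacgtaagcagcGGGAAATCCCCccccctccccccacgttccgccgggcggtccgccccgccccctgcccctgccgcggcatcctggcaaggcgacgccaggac
Nfkbia promoter, chr12:55492648-55492897, minus strand: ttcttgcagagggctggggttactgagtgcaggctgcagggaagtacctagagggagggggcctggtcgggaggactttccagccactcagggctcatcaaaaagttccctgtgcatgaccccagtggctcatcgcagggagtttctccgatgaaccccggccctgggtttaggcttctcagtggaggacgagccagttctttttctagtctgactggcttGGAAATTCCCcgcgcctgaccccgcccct
Nfkbie promoter, chr17:45555450-45555699, plus strand: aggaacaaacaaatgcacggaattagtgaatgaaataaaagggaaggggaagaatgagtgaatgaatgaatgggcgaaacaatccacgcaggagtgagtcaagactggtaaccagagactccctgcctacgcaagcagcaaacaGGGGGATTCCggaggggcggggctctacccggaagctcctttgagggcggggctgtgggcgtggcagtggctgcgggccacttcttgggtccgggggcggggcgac
Nfkb2 start site 1, 30 bases, chr19:46304688-46304717, plus strand: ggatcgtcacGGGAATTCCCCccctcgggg
Nfkb2 start site 3, 30 bases, chr19:46305695-46305724, plus strand: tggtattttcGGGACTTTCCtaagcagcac
The match of Nfkbia ends 20 bases before its start site and that of Nfkbie begins 106 bases before. Rel holds overlapping matches between 92 and 82 bases before its start site. Nfkb2 also holds matches, not printed, 11 to 2 bases before start site 1 and 236 to 227 bases before start site 2. Of the 250 bases in each Nfkb2 window, 250, 167 and 234 lie in annotated exons at start sites 1, 2 and 3. Of the 4 genes with a match, Rel and Nfkbia rose, and Nfkb2 and Nfkbie did not pass the test. Of the 3 whose windows held none, Nfkbib fell and Rela and Bcl3 did not pass. A match is a description of letters and was not tested as a binding site.

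Among the subunits with a transactivation domain, Relb and Rel rose, while Rela, the gene of p65, did not pass the test. Rela (chromosome 19, 5637483 to 5648130, mm10) read 92.0 CPM in control 1, 94.6 in control 2, 91.8 in overexpression 1 and 86.3 in overexpression 2. The groups did not overlap, but control 1 and overexpression 1 were nearly equal. The log2 fold change was -0.07 ± 0.05 (SE) with a 95% interval of -0.17 to 0.03 (limma adjusted p = 0.22). The interval includes 0 and reaches further below it than above. With every library rescaled to the same total CPM the log2 fold change of Rela was -0.03, so the small gap between the groups depends on the scaling.

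Relb, the partner of p52 in the alternative pathway (chromosome 7, 19606217 to 19629438), read 41.7 CPM in both control libraries and 50.2 and 46.0 CPM with overexpression. Both overexpression libraries were higher than both controls. Mean CPM was 41.7 ± 0.0285 in control and 48.1 ± 2.95 with overexpression (SD, n = 2). That gave a log2 fold change of 0.20 ± 0.06 (SE, limma adjusted p = 0.0081). The rise rests in part on overexpression 1, since without it the log2 fold change was 0.14 and did not pass (limma adjusted p = 0.11). Rel, which encodes c-Rel and is best known from lymphoid cells (chromosome 11, 23736847 to 23770970), read 24.7 and 25.2 CPM in the controls and 28.4 and 29.4 CPM with overexpression. Again the groups stood apart, with each pair of libraries within about 1 CPM. The log2 fold change was 0.20 ± 0.08 (SE, limma adjusted p = 0.025). Rel is the least secure of the 6 calls. It was lost without control 1 (limma adjusted p = 0.10), without control 2 (0.056) and without overexpression 2 (0.10), with log2 fold changes of 0.19, 0.22 and 0.18.

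Of the 2 precursor genes Nfkb1 fell and Nfkb2 did not pass the test. Nfkb1, the source of p105 and p50 (chromosome 3, 135584655 to 135691547), read 181 and 191 CPM in control and 158 and 157 CPM with overexpression. Both overexpression values lay well under both control values and were almost identical. Mean CPM was 186 ± 6.93 in control and 158 ± 0.292 with overexpression (SD, n = 2), and the fitted log2 fold change -0.24 ± 0.04 (SE, limma adjusted p = 1.9e-05). Nfkb2, the source of p100 and p52 (chromosome 19, 46304320 to 46312385), read 198 CPM in both control libraries and 194 and 191 CPM with overexpression. The groups did not overlap, but the gap was narrow. Its log2 fold change was -0.04 ± 0.04 (SE), with a 95% interval of -0.11 to 0.04 (limma adjusted p = 0.38). With every library rescaled to the same total CPM the log2 fold change was -0.0004, so the narrow gap depends on the scaling. Exons of Nfkb2 share 299 bases with Psd on the opposite strand, which read 6.71 to 8.38 CPM. They share 531 bases with AC114539.1, a noncoding gene on the opposite strand whose identifier has no row in the deposited expression table. The labels do not say whether the upstream counting used strand, so reads from such shared stretches cannot be told apart.

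Of the 3 classical inhibitors 1 rose, 1 fell and 1 did not pass. Nfkbia, which encodes IkBalpha, the inhibitor that NF-kB itself induces and that shuts the response off again (chromosome 12, 55489410 to 55492647), read 79.5 and 82.7 CPM in control and 97.3 and 96.8 CPM with overexpression. The overexpression libraries agreed closely and lay above both controls. Mean CPM was 81.1 ± 2.26 in control and 97.0 ± 0.342 with overexpression (SD, n = 2), 1.20 times as high. The fitted log2 difference was 0.26 ± 0.05 (SE, limma adjusted p = 4.9e-05).

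Nfkbib, which encodes IkBbeta (chromosome 7, 28758251 to 28767512), read 33.1 and 32.0 CPM in control and 28.7 and 24.5 CPM with overexpression. Both overexpression values were lower than both controls, though they differed from each other by more than the controls did. The log2 fold change was -0.28 ± 0.08 (SE, limma adjusted p = 0.0039). Without overexpression 2, the lower of that pair, it was -0.17 and did not pass (limma adjusted p = 0.087). Nfkbib shares 42 exon bases with Sirt2 and 314 with Ccer2, both on the opposite strand. Sirt2 read 76.3 to 86.2 CPM, and Ccer2 was listed at 0 in the 4 libraries.

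Nfkbie, which encodes IkBepsilon (chromosome 17, 45555703 to 45563169), read 13.9 and 10.8 CPM in control and 13.3 and 12.5 CPM with overexpression. Both overexpression values lay between the 2 controls. Nothing can be said of its direction: the log2 fold change was 0.07 ± 0.12 (SE), with a 95% interval of -0.18 to 0.31 (limma adjusted p = 0.64), and it was -0.10 without control 2. The controls differed by 25.0% of their mean, where counting error alone gives a standard deviation of 8.82% for that gap at 284 and 235 reads.

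The nuclear IkB genes were lower in both overexpression libraries than in both controls, but Nfkbiz alone of the pair passed the test. Nfkbiz, the gene of IkBzeta, which is needed for a subset of secondary inflammatory genes (chromosome 16, 55811375 to 55838899), read 116 and 114 CPM in control and 91.6 and 90.7 CPM with overexpression. The libraries within each group agreed to within 2 CPM and the groups were far apart on that scale. Mean CPM was 115 ± 0.976 in control and 91.1 ± 0.623 with overexpression (SD, n = 2), a drop of 20.7%. The fitted log2 fold change was -0.33 ± 0.04 (SE, limma adjusted p = 7.2e-07). Bcl3, which encodes a partner of p50 and p52 pairs (chromosome 7, 19808462 to 19822770), read 18.1 and 17.6 CPM in control and 15.5 and 16.8 CPM with overexpression. These values did not overlap but lay close together. The log2 fold change was -0.14 ± 0.10 (SE), with a 95% interval of -0.33 to 0.06 (limma adjusted p = 0.22).

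**Figure D3:**
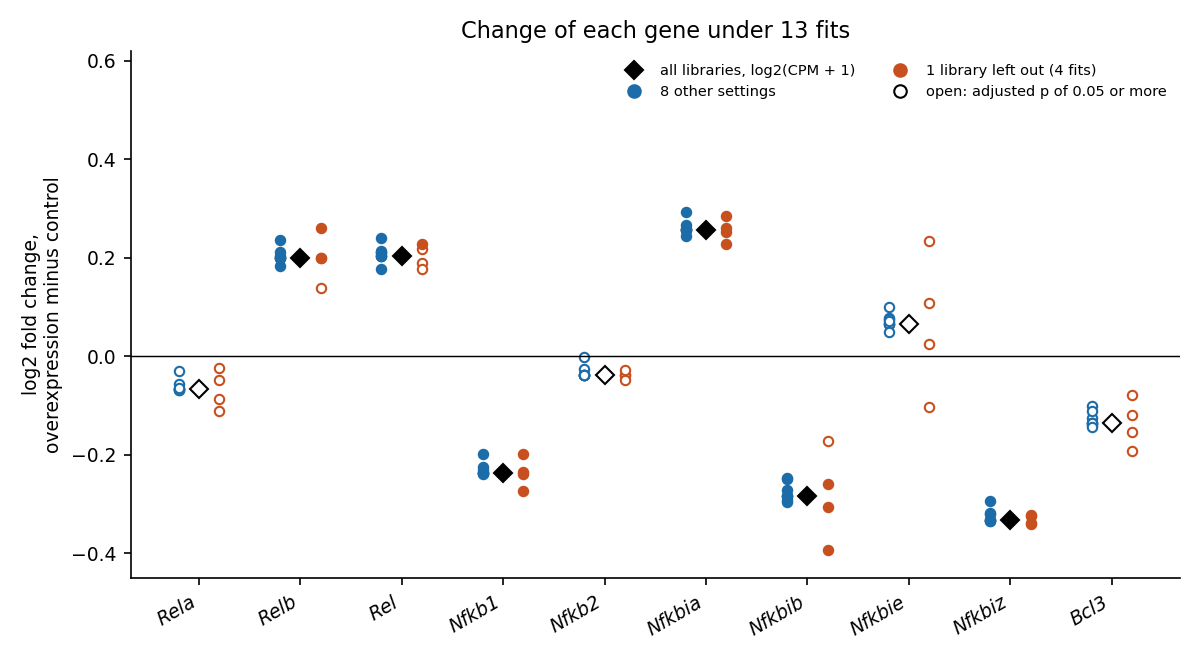
Log2 fold change of each gene under 13 fits: all libraries on the log2(CPM + 1) scale (black), 8 other settings (blue) and 4 fits with 1 library left out (orange), open where the adjusted p was 0.05 or more. Nfkb1, Nfkbia and Nfkbiz stay filled throughout, Relb, Rel and Nfkbib have open orange points, and Nfkbie crosses 0 without control 2.

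Levels were compared between genes per kilobase, with the length of a gene taken as all its annotated exons together (GENCODE M21, mm10). On that length Nfkbia was the highest of the 10 in the control at 50.4 ± 1.40 CPM per kilobase (SD, n = 2), followed by Nfkb2 at 43.2, Rela at 30.4 and Nfkbiz at 22.9. Nfkb1 (15.4 ± 0.575) and Nfkbib (15.0 ± 0.352) came next and could not be ordered, because their library values overlapped. Relb followed at 10.7, Bcl3 at 7.21, Nfkbie at 4.06 ± 0.719 and Rel at 3.34 CPM per kilobase. With overexpression the level of Nfkbia was 60.3 ± 0.213 and that of Nfkbiz 18.2 CPM per kilobase. Relb at 12.4 ± 0.758 and Nfkbib at 12.3 ± 1.38 then overlapped each other, where in the control Nfkbib had been the higher in both libraries. Nfkbib (13.25 and 11.30) also overlapped Nfkb1 (13.09 and 13.06) with overexpression. The other levels with overexpression were 42.0 for Nfkb2, 29.0 for Rela, 13.1 for Nfkb1, 6.53 for Bcl3, 4.24 for Nfkbie and 3.87 CPM per kilobase for Rel. This order depends in 3 places on the length used. By the longest transcript Nfkbia and Nfkb2 both averaged 51.4 CPM per kilobase in control and their libraries overlapped, so neither was the higher. Nfkb1, whose annotated exons together span 12061 bases but whose longest transcript has 4149, read 44.8 CPM per kilobase in control on the latter, above Rela at 34.3. With overexpression Relb (15.3 and 14.1) then lay above Nfkbib (13.9 and 11.9) without overlap.

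Within the Rel family the mixture of transcripts moved a little away from Nfkb1 and towards Relb and Rel. Nfkb2 made up 41.9% of the summed Rel level per kilobase in both groups, and Rela 29.5% in control and 28.9% with overexpression. The share of Nfkb1 was 14.7% and 15.2% in the controls and 12.8% and 13.2% with overexpression. That of Relb was 10.5% and 10.3% in the controls and 12.7% and 12.0% with overexpression, and that of Rel 3.24%, 3.25%, 3.73% and 3.99% in the same order. For these 3 genes the groups did not overlap. Neither did they for Rela, at 29.32% and 29.64% in the controls and 29.29% and 28.47% with overexpression. By the longest transcript the Rela shares overlapped. In CPM the groups did not overlap for 81.6% of all tested genes. By the longest transcript Nfkb1 held 30.5% in control and 27.3% with overexpression, so its level differs between the length measures while its direction is the same. The summed Rel level itself was 102 and 104 CPM per kilobase in the controls and 102 and 98.7 with overexpression.

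The IkB family held a larger share of Nfkbia with overexpression and smaller ones of Nfkbiz and Nfkbib. Nfkbia supplied 49.6% and 51.6% of its summed level per kilobase in the controls and 58.9% and 59.9% with overexpression, a gain of 8.78 percentage points on average. Nfkbiz went from 23.1% and 22.9% to 17.8% and 18.0%, and Nfkbib from 15.3% and 14.8% to 12.9% and 11.3%. In each of these 3 genes the overexpression libraries stood apart from the controls. So did those of Bcl3, at 7.34% and 7.15% in the controls and 6.11% and 6.78% with overexpression. Without division by length the Bcl3 shares overlapped, at 6.95% and 6.85% in the controls and 6.29% and 6.98% with overexpression. Shares of a family add up to the whole, so they do not move independently. Over all tested genes the CPM values of the groups did not overlap for 81.6%. The family sum was 99.5 CPM per kilobase in both control libraries and 103 and 100.4 with overexpression. These sums carry the scaling of the deposited CPM, which differs between the groups, and were not computed under another scaling. Nfkbia, the inhibitor known for fast turnover, thus stood in a higher proportion to Nfkbib, known for slower turnover, at ratios of 3.24 and 3.48 in the controls and 4.56 and 5.32 with overexpression.

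**Figure D4:**
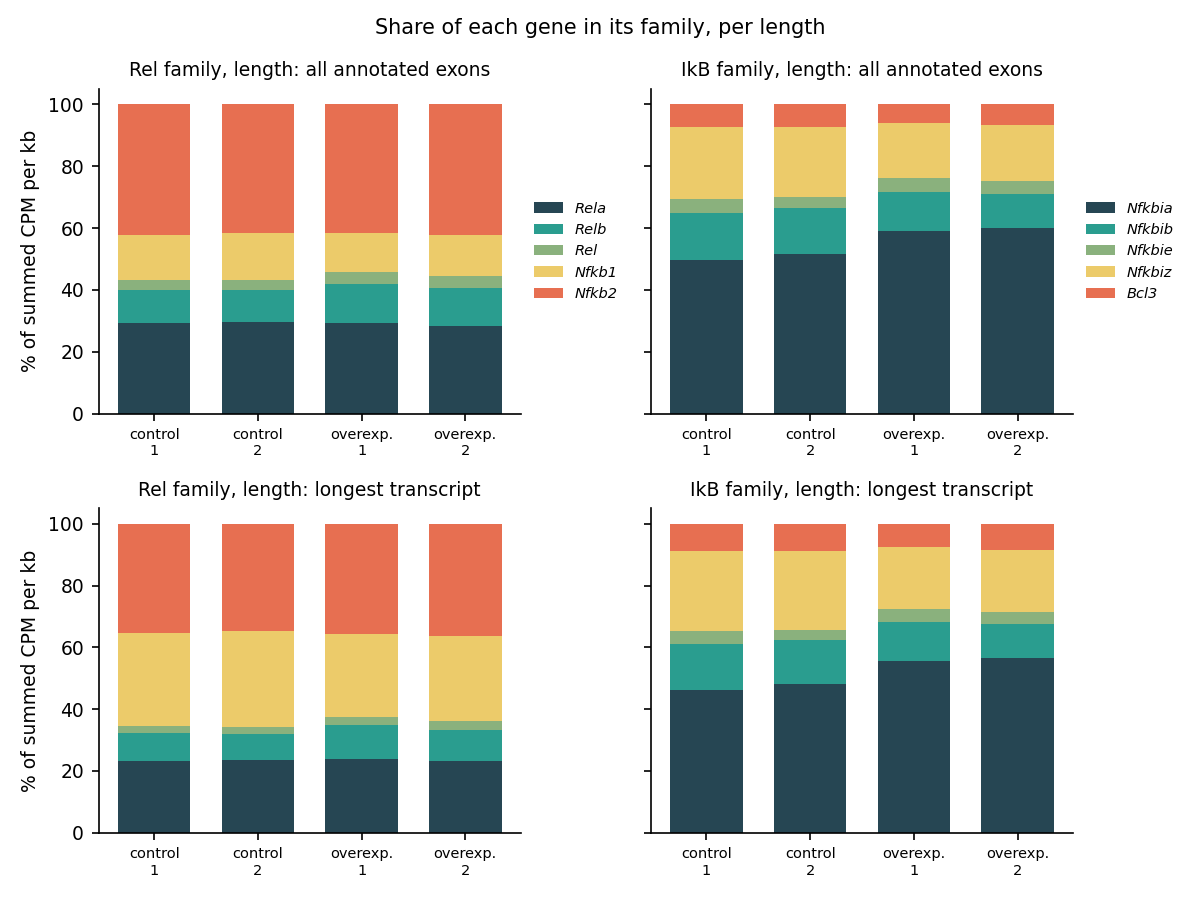
Share of each gene in the summed CPM per kilobase of its family, as stacked bars for the 4 libraries, with length taken from all annotated exons (top) or the longest transcript (bottom). Nfkbia takes 46.3% to 51.6% of the IkB level in the control bars and 55.7% to 59.9% in the overexpression bars under both lengths, and Nfkb1 takes a larger share of the Rel level under the longest transcript.

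The summed RNA levels of the IkB and Rel genes were also compared. Because the IkB sum includes Nfkbiz and Bcl3, which can act as coactivators, this ratio is not a balance of inhibitors to subunits. The summed level of the 5 IkB genes over that of the 5 Rel genes was 0.974 and 0.958 in the controls and 1.01 and 1.02 with overexpression, a difference of 0.07 on the log2 scale. The groups did not overlap, and the exact two-sided permutation p was 0.333, the smallest that 2 libraries against 2 allow. Without division by length the ratio was 0.484 and 0.468 in the controls and 0.472 and 0.473 with overexpression, a difference of -0.01, so the sign depends on the length correction. Nfkbia, Nfkbib and Nfkbie alone, the cytoplasmic inhibitors, gave 0.677 and 0.671 of the summed Rel level in the controls and 0.765 in both overexpression libraries (exact two-sided permutation p = 0.333). The level of Nfkbia over that of Rela, the main inhibitor over its main target, was 1.65 and 1.67 in the controls and 2.02 and 2.14 with overexpression (exact two-sided permutation p = 0.333). Relb over Rela went from 0.359 and 0.349 to 0.432 and 0.422, also without overlap (exact two-sided permutation p = 0.333).

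Other genes of the pathway were described from lists of fixed membership. Of 12 genes for the IKK complex and its upstream kinases, 3 rose, 4 fell and 5 did not pass, with a median log2 fold change of -0.05. The share called was 58.3%, beside 66.1% of all tested genes. Ripk1, the kinase scaffold at the TNF receptor, fell from 77.3 to 54.5 CPM (log2 fold change -0.50 ± 0.05, SE). Ikbkg, the regulatory subunit NEMO, fell from 68.9 to 56.1 CPM (-0.29 ± 0.06) and Tab2, an adaptor of the kinase TAK1, from 139 to 120 CPM (-0.21 ± 0.04). Map3k14, which encodes NIK, the kinase of the alternative pathway that acts on p100, rose from 38.2 to 45.0 CPM (0.23 ± 0.06). The limma adjusted p of these 4 genes was 0.0024 or lower.

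Of 12 genes for the ubiquitination machinery that acts on phosphorylated IkB, 2 rose, 5 fell and 5 did not pass, with a median of -0.01. Here too 58.3% were called, beside the 66.1% of all tested genes. The substrate-binding subunits Btrc and Fbxw11 did not pass the test, with log2 fold changes of -0.01 and 0.02, and are named after their values were seen. The scaffold gene Cul1 fell from 180 to 133 CPM (-0.44 ± 0.04, SE), the RING subunit gene Rbx1 from 78.9 to 63.8 CPM (-0.30 ± 0.05) and Ube2m, which encodes a NEDD8-conjugating enzyme, from 89.7 to 73.5 CPM (-0.28 ± 0.05). Cand1, whose protein exchanges the substrate receptors of these ligases, rose from 164 to 235 CPM (0.51 ± 0.04). For these 4 genes the limma adjusted p was at most 3.9e-05.

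Of 13 negative regulators, 3 rose, 5 fell and 5 did not pass, so 61.5% were called beside 66.1% of all tested genes. The median was near 0 and the median size of a change 0.32. Tnfaip3, the gene of the ubiquitin-editing protein A20, rose from 41.2 and 44.3 to 60.6 and 63.7 CPM (0.53 ± 0.06, SE). Its partner Tnip1 fell from 115 and 110 to 76.1 and 70.5 CPM (-0.61 ± 0.05). Nkiras1, which encodes a small GTPase-like protein that binds IkB proteins, rose from 6.73 to 10.3 CPM (0.55 ± 0.12), and Socs1 fell from 10.5 to 4.66 CPM (-1.03 ± 0.13). Both were weakly expressed. Over the 12 other fits the change ran from 0.38 to 0.62 for Nkiras1 and from -1.17 to -0.68 for Socs1. Of 10 nuclear cofactors and modifiers of p65, 3 rose, 4 fell and 3 did not pass, with a median of -0.07 and 70.0% called, near the 66.1% of all tested genes. The acetyltransferase gene Ep300 fell from 217 to 144 CPM (-0.58 ± 0.04), the deacetylase genes Hdac1 (-0.49 ± 0.05) and Sirt1 (-0.44 ± 0.13) also fell, and Rps6ka5, which encodes the kinase MSK1, rose from 14.2 to 21.4 CPM (0.55 ± 0.09). The limma adjusted p of these 8 genes was 0.0041 or lower.

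**Figure D5:**
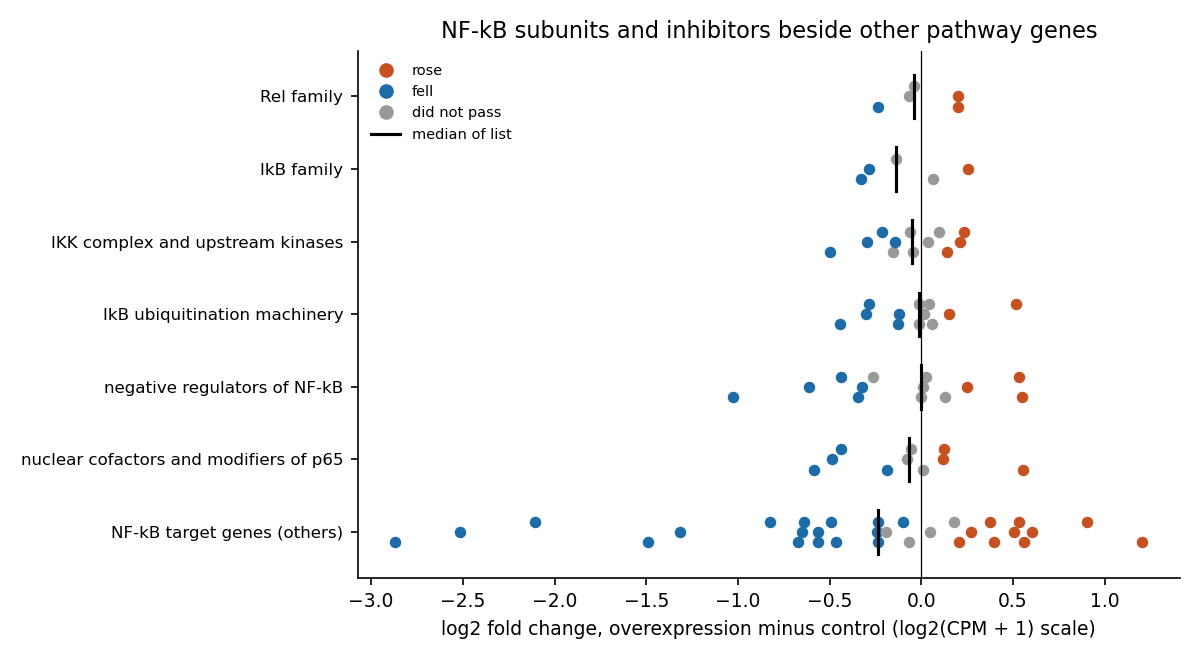
Log2 fold change of every tested gene of the Rel and IkB families and of 5 other pathway lists, orange for genes that rose, blue for those that fell, grey for those that did not pass, with a black line at each list's median. The 10 Rel and IkB genes lie between -0.33 and 0.26, while the target genes reach from -2.87 to 1.21.

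The listed targets of the pathway, other than the 10 genes themselves, spread much wider than the genes that encode its subunits. Tnfaip3 stands in this list and among the negative regulators. Of 35 target genes 31 were tested, and 10 rose, 17 fell and 4 did not pass, which is 87.1% called beside the 66.1% of all tested genes. Their median log2 fold change was -0.23 and the median size of a change 0.53, where all tested genes gave 0.28. Ccl2, which attracts monocytes, fell from 116 and 117 to 13.7 and 16.5 CPM (log2 fold change -2.87 ± 0.07, SE). The chemokine genes Ccl20 (-2.52 ± 0.15) and Ccl7 (-2.10 ± 0.16) and the receptor gene Tlr2 (-1.49 ± 0.06) also fell, each with a limma adjusted p of 8.8e-11 or lower. The sizes for Ccl20 and Ccl7, which were low with overexpression, depend on the pseudocount. At a pseudocount of 5 they were -1.52 and -1.12, and at 0.1 they were -3.04 and -2.71, where Ccl2 gave -2.94, so Ccl2 and Ccl20 cannot be ranked. Gadd45b, named after its value was seen, rose most, from 20.9 to 49.7 CPM (1.21 ± 0.07). These targets were listed with earlier results of the same libraries known. Their direction, share called and size of change are therefore not independent evidence.

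The IkB relatives outside the 10 genes were Nfkbil1 and Nfkbid. Nfkbil1, an IkB-like gene, read 22.6 and 23.0 CPM in control and 26.7 and 25.7 CPM with overexpression (0.19 ± 0.08, SE, limma adjusted p = 0.039). Its groups did not overlap, but the call was lost in each of the 4 fits with 1 library left out (limma adjusted p from 0.054 to 0.15). Nfkbid, which encodes the nuclear protein IkBNS, was listed at 0 in both control libraries and at 0.504 and 1.07 CPM with overexpression, from 8 and 18 recovered reads. It lay under the expression filter and was not tested.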

How the data were processed

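RNA was extracted with Trizol and read as paired ends, per the labels' protocols. FastQC 0.11.2, STAR, RSEM and the build mm10 are named, per the submitters' processing notes, without roles or settings. The deposited values are CPM, a unit assigned from the values themselves. Column sums were 1009970 and 1016225 in control 1 and 2 and 982877 and 991293 in overexpression 1 and 2. They show a further scaling that no label describes and that differs between the groups. Values are multiples of a hundredth of a read, and for all 10 genes the recovered reads, from 210 to 4299 per library, were whole within 0.005 read in the 4 libraries. A floor of 3 reads equals 0.138 to 0.189 CPM.

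Expression was fitted with limma 3.58.1 in R 4.3.3 (lmFit, eBayes with trend) to log2(CPM + 1). The filter of 1 CPM or more in 2 or more libraries left 12510 genes, over which p-values were adjusted by Benjamini-Hochberg. Because of the pseudocount of 1, changes of weakly expressed genes are understated. The residual degrees of freedom numbered 2, and the prior added 20.0. The 95% intervals use that sum. The steps were tested on simulated data in which far fewer genes changed than were called here. That test does not give the error rate of these calls. Lengths and positions came from GENCODE M21, which matched 50376 of the 50600 identifiers, and start-site sequences from RefSeq (GRCm38.p6). Reads of overlapping genes may have been divided upstream.

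The members and lists were chosen with earlier results of these data known. All 10 members, Mtss1 and, from each list, up to 4 genes with the largest change past the threshold and no overlap of the groups are named, while others are marked or serve as cell type markers. Alternatives were limma-voom on the recovered reads, 2 other scalings, 2 other filters, pseudocounts of 0.1 and 5, a replicate block, an adjusted p of 0.01, another gene length and leaving out each library.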

Additional observations from a re-analysis of the deposited data

How the results depend on the processing

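The number of the 10 genes called was 6 in each of the 8 alternative settings that kept all libraries at a threshold of 0.05, and 5 at an adjusted p of 0.01, where Rel was lost. With 1 library left out fewer of the 10 genes were called, and a smaller share of all tested genes was called too. Nfkbia, Nfkb1 and Nfkbiz passed in all 12 other fits. Relb passed in 11 (log2 fold change 0.14 to 0.26), Nfkbib in 11 (-0.39 to -0.17) and Rel in 9 (0.18 to 0.24). Rela (-0.11 to -0.02), Nfkb2 (-0.05 to -0.00) and Bcl3 (-0.19 to -0.08) passed in none. Nfkbie turned from 0.07 to -0.10 without control 2 and was 0.23 without control 1, and the cause was not tested. The log2 difference in the ratio of summed IkB to summed Rel genes was 0.07, 0.08 by the longest transcript, 0.05 to 0.08 with 1 library left out and -0.011 without division by length. The number of all genes called was 7046 to 8377. As a share of tested genes it was 65.4% to 67.0% in the settings with all libraries and a filter, at a threshold of 0.05. It was 35.4% of 22310 genes without a filter and 56.3% at an adjusted p of 0.01. With the replicate number as a block 6 of the 10 genes were called and no member changed its call. Libraries with the same number did not deviate together (correlation of deviations -0.02 across genes), so the block is given here only. With 1 library left out, the lone library of a group is assumed to vary like the other group. With 2 libraries per group, changes of the size of Rela or Bcl3 could not be told from 0.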

Other observations

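In 3 cases the replicate libraries of one of the 10 genes differed by more than 2 times the standard deviation that counting error gives for the gap. The share of such gaps over all tested genes was not computed, so whether these genes vary more than others is not known. The overexpression libraries of Nfkbib differed by 15.9% of their mean, where counting error gives a standard deviation of 6.80% for the gap at 456 and 412 reads, the control libraries of Nfkbie differed by 25.0% against 8.82%, and those of Nfkb1 by 5.27% against 2.26%. Over the tested genes with a start-site window, the kB motif was found in the 250 bases before a start site for 10.7% of 2986 genes that rose, 10.2% of 3192 that fell and 10.7% of 2959 that did not pass. The share with a match was thus close to the same in the 3 classes.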
